A study of Rattus norvegicus with 28 samples.

Results

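Heart endothelial preparations taken from Lewis rat isografts on day 4 after transplantation were compared with the same kind of preparation from normal Lewis hearts. The comparison rests on the 3 arrays titled as isografts of day 4 and the 3 titled as their controls, 6 of the 28 arrays of the series, and covers 14217 genes. An isograft here is a Lewis heart placed in the neck of another Lewis rat with a cuff technique, so donor and recipient shared a strain and host cells cannot be told from donor cells by strain. The normal hearts had not been transplanted, so surgery, the time without blood flow, the new position and the healing that followed all fall on one side of the comparison. All animals were male, and their ages are not given in the sources used here.

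Each heart was minced, cells carrying the leukocyte protein CD45 were removed with magnetic beads, and cells carrying CD31, a protein of the endothelial surface, were then collected. Other groups used below had 3 arrays each: Lewis isografts of day 2 and day 3, DA rat hearts grafted into Lewis rats and taken on day 4 (allografts, mismatched for transplantation antigens), and normal DA hearts. Another 4 arrays held leukocytes from allografts. The 3 arrays of a group are biological replicates by the series' own description, but nothing says that each came from 1 animal. The p-values thus measure a spread between samples (n = 3 in every group). That spread is 1 value per gene, pooled within the 8 groups of all 24 endothelial arrays, allografts of days 2 and 3 included. An SE can therefore exceed the spread of the arrays printed beside it. Values are log2 signals, a difference of 1 log2 is 2-fold, errors after a mean are SDs, and SE marks the standard error of a difference.

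Endothelium is the cell layer that lines blood vessels. After injury it displays selectins and adhesion receptors that slow leukocytes in the blood and hold them, and chemokines that call them into the tissue. Monocytes enter, become macrophages, clear dead material and release signals for repair, while fibroblasts lay down a provisional matrix of tenascin, periostin and fibronectin and later collagen.

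The preparations carried the RNA of endothelium. Of 18 endothelial markers 16 were measured, and their mean level lay between 11.99 and 12.29 on all 6 arrays, with the grafts at 11.99, 12.03 and 12.07. Their differences ran from -0.51 to 0.27 log2 with a median of -0.09, against -0.01 over all genes, and 0 of 16 passed the test in limma, with 0 higher and 1 lower at an unadjusted p under 0.05. CD31 itself (Pecam1) measured 11.94, 11.58 and 11.04 in normal hearts and 11.59, 11.29 and 11.44 in the grafts, which overlap. The ratios of 3′ to 5′ probe sets of actin, a sign of RNA breakage, were 0.84 to 1.41 log2 in normal hearts and 0.78 to 1.23 log2 in grafts.

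On day 4, 371 genes were higher and 79 lower than in normal endothelium, at an adjusted p under 0.05 in limma. That is 3.17% of all genes tested, 2.61% higher and 0.556% lower. The changes upward were the larger ones: 242 of the 371 were at least 2-fold higher, 100 at least 4-fold and 38 at least 8-fold, while 25 of the 79 lower genes reached 2-fold and 4 reached 4-fold. The 3 graft arrays and the 3 normal arrays did not overlap in 369 of the 371 and in all 79, against 20.4% of all genes. Since the call used these same arrays, this separation adds no support of its own. At the edge of the threshold stood Rab3b at -0.42 log2 (adjusted p = 0.04996) inside and Srebf2 at -0.69 log2 (adjusted p = 0.05029) outside. The highest were Gpnmb, a glycoprotein of phagocytes loaded with debris, periostin (Postn), the macrophage pore protein Mpeg1, the collagen chain Col1a1, the lectin receptor Clec4a3 and the Fc receptor Fcgr2b. The lowest were Cyp26b1, which degrades retinoic acid, the myosin heavy chain Myh6, cardiac troponin I (Tnni3), myoglobin (Mb) and the sodium channel Scn7a, whose call was lost without control replicate 1 (adjusted p = 0.0561).

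To describe which of these transcripts leukocytes carry, a gene was called leukocyte-rich where the 4 leukocyte arrays lay at least 2-fold above the 9 allograft endothelial arrays with no overlap, after a shift of 0.327 log2 between both sets had been removed. No isograft array and no array of normal Lewis hearts entered this rule. Of the 371 higher genes 190 (51.2%) were leukocyte-rich, against 8.61% of all genes, and 181 were not. Of the 79 lower genes 5 were leukocyte-rich. In bulk preparations, more cells of a type and more RNA per cell cannot be told apart. With the mean of a pan-leukocyte list as a covariate, 33 genes were called higher and 3 lower, and 87.5% of the variance of that mean lay between the groups.

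Leaving out 1 array at a time gave 204 to 328 higher and 29 to 71 lower genes. The higher count dropped to 221 when control replicate 2 was omitted, to 228 for control replicate 3, to 217 for day 4 replicate 1 and to 204 for day 4 replicate 3. The lower count dropped to 49 for control replicate 1, to 35 for control replicate 2 and to 29 for day 4 replicate 1. In all 6 of these fits 182 genes kept their call, 167 higher (67 of them not leukocyte-rich) and 15 lower.

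**Figure D1:**
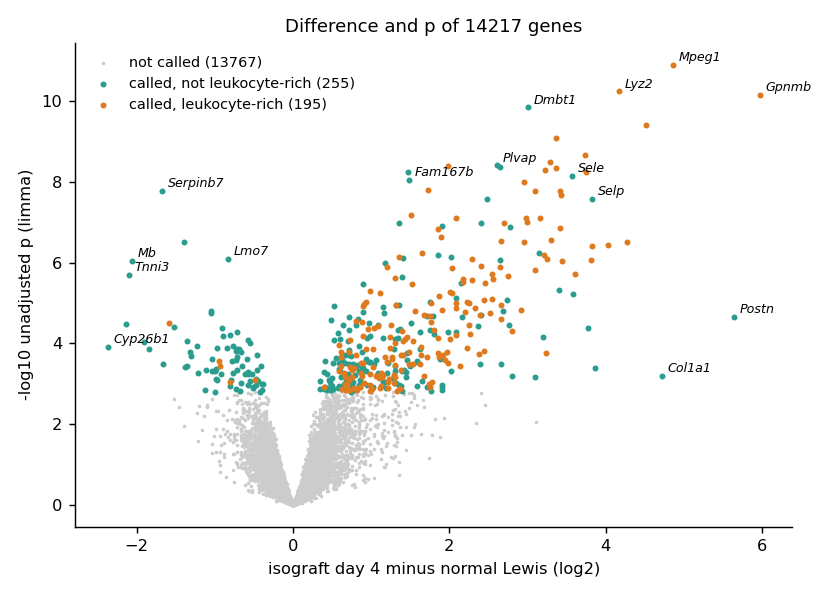
Difference between isograft day 4 and normal Lewis endothelium (horizontal axis, log2) against the -log10 of the unadjusted p in limma (vertical axis), 1 point a gene. The 255 called genes that were not leukocyte-rich and the 195 that were lie mostly on the right, where they reach 5.97 log2, while the lowest called gene lies at -2.37 log2.

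Transcripts with which vessels catch leukocytes were among those that rose most outside the leukocyte-rich set. P-selectin (Selp), stored in endothelial granules and used to make leukocytes roll, measured 6.58, 7.64 and 7.14 in normal hearts and 11.09, 11.60 and 10.17 on day 4. That is a rise of 3.83 log2, or 14.3-fold (SE 0.44, adjusted p = 1.49e-05), while its other probe set differed by 0.38 log2. E-selectin (Sele), another rolling receptor, made anew by activated endothelium, went from 7.69, 8.37 and 7.55 to 11.51, 11.88 and 10.94, a rise of 3.57 log2 (SE 0.38, adjusted p = 6.31e-06). For both selectins every graft array lay at least 2 log2 above every normal array, and day 4 replicate 3 was the lowest graft.

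Ackr1, the chemokine-binding receptor of venules, stood at 7.18, 7.06 and 6.76 in normal hearts and at 9.79, 9.35 and 9.06 in grafts, 2.40 log2 higher (SE 0.30). Vcam1, which holds monocytes and lymphocytes firmly, measured 9.44, 10.58 and 9.60 against 11.71, 11.64 and 11.13, 1.62 log2 higher (SE 0.32, adjusted p = 0.00465). Normal replicate 2 came nearest to the grafts. These 4 were the members called among 13 genes of leukocyte capture and adhesion, 4 higher and 0 lower, and the median of the group was 0.01 log2. Icam1, a ligand of leukocyte integrins, went from 8.75, 10.46 and 8.91 to 10.98, 11.52 and 10.28 and did not pass the test (1.56 log2, SE 0.55, adjusted p = 0.16). The 4 calls held without any single array.

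Several of these genes mark venules and endocardium, the lining of the heart's chambers. Of 11 genes of that list 4 rose (Ackr1, Selp, Vcam1 and Plvap) and 1 fell. Plvap, the protein of the diaphragms that span endothelial pores and a gene most cardiac capillaries keep low, measured 7.68, 8.17 and 8.29 in normal hearts and 11.03, 10.76 and 10.16 in grafts, 2.61 log2 higher (SE 0.26, adjusted p = 5.37e-06). Npr3, the clearance receptor for natriuretic peptides and a mark of endocardium, went the other way, from 6.83, 7.36 and 6.93 to 6.20, 6.49 and 5.76. Its fall of 0.89 log2 (SE 0.18) lost its call without control replicate 2, with an adjusted p of 0.0508. Of the 14 genes of junctions and permeability, Plvap was the member called.

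Other genes that rose and were not leukocyte-rich had varied roles. Dmbt1, a secreted scavenger protein of mucosal defence, measured 7.72, 7.97 and 8.17 in normal hearts and 11.22, 10.81 and 10.85 in grafts, 3.01 log2 higher (SE 0.25, adjusted p = 4.95e-07). The protease inhibitor Serpina3n, an acute-phase gene, went from 4.84, 5.05 and 4.83 to 8.47, 8.09 and 7.60, 3.15 log2 higher (SE 0.44). Chosen after its values were seen, Slco2a1, the carrier that takes up prostaglandins, measured 7.22, 7.54 and 7.47 against 10.44, 9.93 and 9.81 (2.65 log2, SE 0.27). Fgf23, a phosphate-regulating hormone of bone and likewise chosen after its values were seen, measured 4.83, 5.60 and 4.79 against 7.97, 8.23 and 6.98 (2.65 log2, SE 0.38). In all 4 genes the groups were more than 1 log2 apart at their nearest arrays, and all 4 were lower in the leukocytes than in allograft endothelium.

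**Figure D2:**
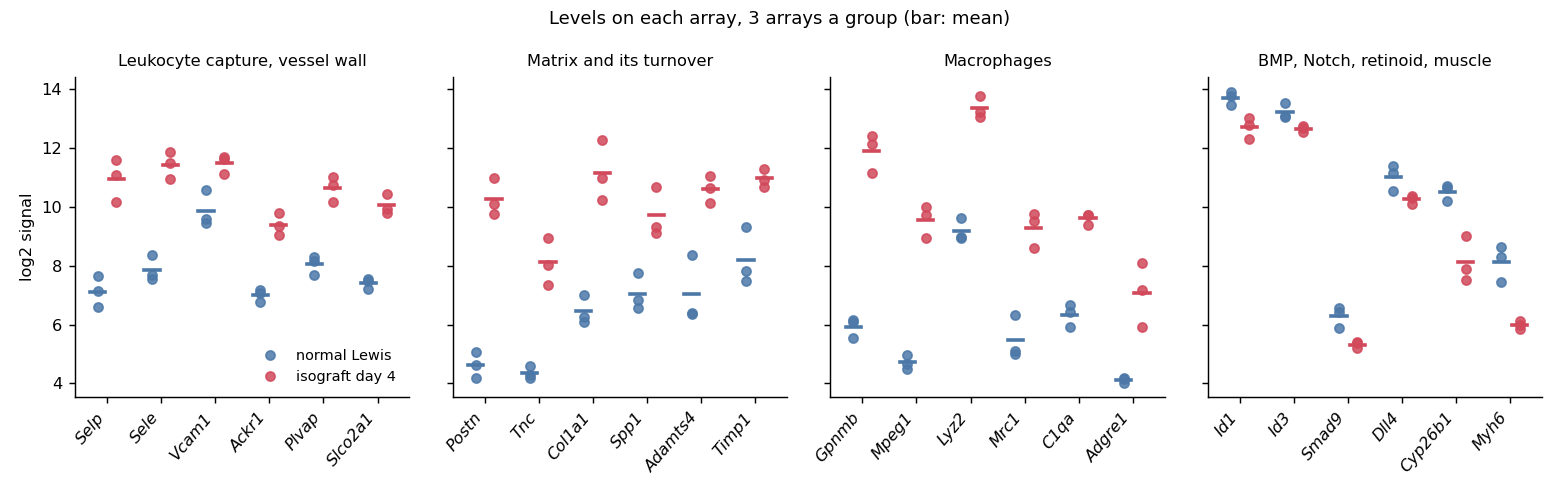
Log2 signal (vertical axis) of 24 genes on each of 3 normal Lewis arrays (blue) and 3 isograft day 4 arrays (red), with a bar at each group's mean; genes are grouped by role in 4 panels. All genes shown were called on these arrays, which makes separation likely. The groups do not overlap in any of them, and they come nearest in Dll4, whose normal arrays reach down to 10.54 and whose graft arrays reach up to 10.37.

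Macrophage transcripts rose as a whole. All 19 measured markers of the list passed, with a median of 3.09 log2 and a range of 1.68 to 5.97 log2, and all 19 were leukocyte-rich. The mean level of the list was 5.79, 5.94 and 6.08 on the normal arrays and 9.43, 8.67 and 9.54 on the day 4 arrays, with replicate 2 the lowest graft. Gpnmb went from 6.15, 5.54 and 6.09 to 12.13, 11.15 and 12.40, a rise of 5.97 log2 or 62.6-fold (SE 0.48, adjusted p = 3.22e-07). Mpeg1 measured 4.67, 4.50 and 4.96 against 9.99, 8.95 and 9.74 (4.86 log2, SE 0.35). Lysozyme (Lyz2), the bacteria-degrading enzyme of macrophages and neutrophils, measured 8.97, 8.94 and 9.63 against 13.22, 13.07 and 13.76 (4.17 log2, SE 0.33). The count of 19 held without each of the 6 arrays in turn. It was 8 with the pan-leukocyte covariate.

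Of 17 genes used to mark macrophages that clear and repair 9 rose and 0 fell, with a median of 1.52 log2. Among the 9 were the mannose receptor Mrc1, the haemoglobin scavenger receptor Cd163 and the folate receptor Folr2. Mrc1 went from 4.99, 5.09 and 6.31 to 9.52, 8.62 and 9.75 (3.83 log2, SE 0.52), and Cd163 from 4.19, 4.27 and 4.04 to 7.05, 6.56 and 6.86 (2.66 log2, SE 0.49). Haem oxygenase (Hmox1), which breaks down the haem that Cd163 brings in, was 2.56 log2 higher (SE 0.39), from 8.26, 8.62 and 8.25 to 11.61, 10.24 and 10.94. With ceruloplasmin (Cp, 1.86 log2) these were the 3 of 13 genes of iron and haem handling that rose. Arg1, an arginine-consuming enzyme often used to mark repair-type macrophages, stood at 7.11 to 7.37 in normal hearts and 8.39 to 8.73 in grafts and did not pass (1.33 log2, adjusted p = 0.249). Retnla, another such marker, differed by -0.15 log2.

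Genes of phagocytosis rose as well. Of 12 genes of Fc receptors and their ITAM signalling adaptors 6 rose, among them Fcgr2b, from 4.26, 4.42 and 3.79 to 8.68, 8.14 and 8.45 (4.27 log2, SE 0.57), and the shared Fc signalling chain Fcer1g (3.75 log2, SE 0.39). Of 22 lysosome genes 11 rose and 0 fell, with a median of 0.68 log2. They included 6 cathepsins, the protein-degrading enzymes of the lysosome, with Ctss at 3.22 log2 (SE 0.33), and legumain (Lgmn), which activates cathepsins, at 3.36 log2 (SE 0.31). The other probe set of Lgmn differed by -0.25 log2.

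Complement, the blood proteins that tag targets for phagocytes, gave 8 risers among 15 genes and 0 that fell. The chains of C1q, which macrophages make, rose by 3.29 log2 for C1qa (SE 0.33), 2.25 log2 for C1qb and 2.66 log2 for C1qc. C1qa measured 5.92, 6.67 and 6.41 in normal hearts and 9.74, 9.39 and 9.74 in grafts. The receptor of the inflammatory fragment C5a, C5ar1, rose by 2.95 log2, and complement factor D (Cfd) by 3.30 log2. Risers that were not leukocyte-rich were the C1 protease C1s, at 1.91 log2 and lost without each array but control replicate 3 (adjusted p up to 0.166), and the C1 inhibitor Serping1. Serping1 went from 8.29, 8.23 and 8.48 to 10.40, 9.73 and 10.23 (1.79 log2, SE 0.32). The central component C3 measured 5.26, 5.12 and 5.32 against 6.84, 5.63 and 5.34 and did not pass (adjusted p = 0.463).

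Class II MHC molecules, which present peptides to helper T cells, rose in 6 of 9 genes, with a median of 1.30 log2 (the 9 include the peptide-trimming cathepsin Ctss). The RT1-Da chain went from 7.20, 7.33 and 7.18 to 9.33, 9.83 and 10.11 (2.52 log2, SE 0.45), RT1-Bb rose by 2.44 log2 (SE 0.52; -0.24 log2 in its other probe set), and the invariant chain Cd74 by 2.13 log2 (SE 0.50). Of the 9 genes 8 were leukocyte-rich. Ciita, the factor that switches on class II genes, stood at 5.90, 6.14 and 6.26 against 6.09, 6.21 and 5.85 (-0.05 log2, adjusted p = 0.968). Day 4 replicate 3 was the highest array for the 3 chains named, and without it 2 of the 9 genes were called. The call of Cd74 was also lost without any 1 of the normal arrays (adjusted p up to 0.129), and that of RT1-Bb without control replicate 3.

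Of 15 pan-leukocyte genes, which macrophages express too, 5 rose, among them Cd53 (3.25 log2, SE 0.46) and Ptprc, which encodes CD45, from 5.40, 5.29 and 5.68 to 8.08, 7.11 and 7.97 (2.26 log2, SE 0.45). This transcript rose in preparations from which CD45-bearing cells had been depleted. The pan-leukocyte mean was 7.09 to 7.43 in normal hearts and 7.97 to 8.27 in grafts. The count was 3 without control replicate 1 or 2, or day 4 replicate 1 or 3.

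Of 14 T cell genes 4 rose: the coreceptor chains Cd8a (1.53 log2) and Cd8b (0.72 log2) and the signalling genes Lck (1.04 log2) and Lat (1.29 log2). The defining chains of the T cell receptor complex differed little: Cd3e was at 6.11, 6.31 and 6.17 against 5.91, 6.13 and 6.38 (-0.06 log2), Cd3d differed by -0.05 log2 and Cd3g by 0.25 log2. Of the 4 calls 3 were lost when single arrays were left out. The count was 1 without control replicate 1 or day 4 replicate 1. It was 2 without control replicate 2 or 3 or day 4 replicate 3. Of 11 genes of NK and cytotoxic cells, 8 of neutrophils, 7 of B cells and 9 of mast cells, 0 passed in limma, and at an unadjusted p under 0.05 stood 1 B cell gene on the higher side and 1 mast cell gene on the lower. The granule protein S100a9 of neutrophils measured 4.93, 4.78 and 4.96 against 6.90, 6.46 and 6.54 and missed the threshold (1.74 log2, SE 0.90, adjusted p = 0.403). This SE draws on all 24 endothelial arrays. With only the 6 arrays compared in the fit, 3 of the 8 neutrophil genes were called higher. In that fit 0 genes of NK and cytotoxic cells, B cells and mast cells were called. Of 7 dendritic cell genes Cd83 and Itgax rose, and each call was lost without any 1 of the 6 arrays.

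**Figure D3:**
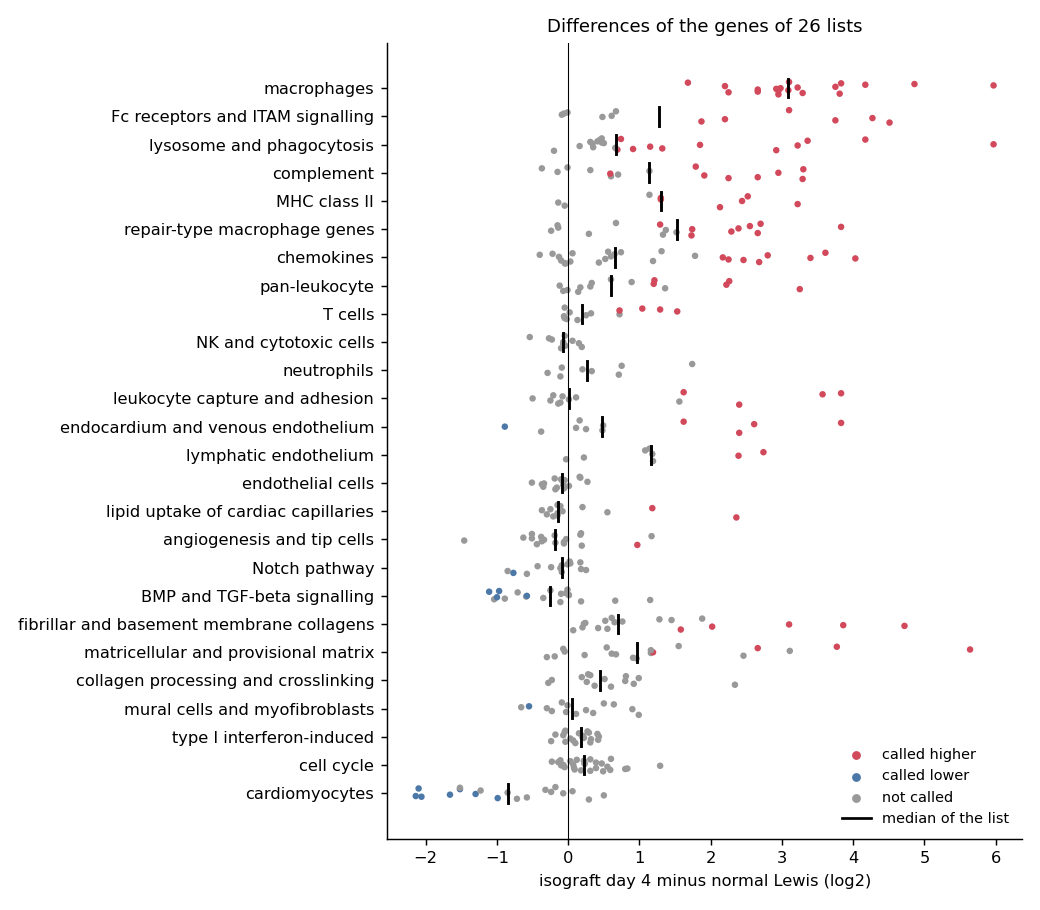
Difference between isograft day 4 and normal Lewis endothelium (horizontal axis, log2) for each gene of 26 lists, with called genes in red (higher) or blue (lower), other genes in grey and a black bar at the list's median. All points of the macrophage list are red and lie at or above 1.68 log2, the 4 red adhesion genes stand apart from a list whose median is 0.01 log2, and the cardiomyocyte list has 7 blue points.

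Chemokines rose in 8 of 25 genes, with a median of 0.65 log2 and 0 lower. Among those that attract monocytes were Ccl2, from 8.17, 9.46 and 8.01 to 11.39, 11.06 and 11.23 (2.68 log2, SE 0.48), and Ccl7, from 5.58, 6.81 and 5.94 to 9.58, 9.47 and 9.49 (3.40 log2, SE 0.55). Both lay higher in leukocytes than in allograft endothelium on average, by 1.30 log2 for Ccl2 and 1.40 log2 for Ccl7, but the arrays overlapped, so neither counted as leukocyte-rich. Normal replicate 2 was the highest normal array for both. Ccl6, a chemokine of myeloid cells that was leukocyte-rich, rose by 4.03 log2 (SE 0.54). The monocyte attractants Ccl3 (2.46 log2), Ccl4 (2.25 log2) and Ccl9 (2.17 log2) rose and were leukocyte-rich too. Cxcl2, which attracts neutrophils and was leukocyte-rich, went from 7.91, 8.84 and 7.67 to 11.88, 11.54 and 11.83 (3.61 log2, SE 0.55, adjusted p = 0.00041).

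Genes that interferon-gamma, the T cell cytokine, induces were called in 1 of 13 cases, the chemokine Cxcl11. It measured 5.47, 6.10 and 6.19 in normal hearts and 8.87, 9.53 and 7.77 in grafts (2.80 log2, SE 0.70, adjusted p = 0.0271), and the call was lost without each array but day 4 replicate 3 (adjusted p up to 0.124). Its relatives Cxcl10 (8.51, 9.97 and 7.55 against 10.64, 11.32 and 9.40) and Cxcl9 (9.12, 10.28 and 8.95 against 10.96, 11.59 and 9.73) overlapped between the groups and did not pass. Of 20 genes of type I interferon, the antiviral cytokine, 0 passed, 0 stood at an unadjusted p under 0.05, and their differences ran from -0.24 to 0.43 log2. Of 15 genes of MHC class I and peptide loading 0 passed (1 higher at an unadjusted p under 0.05), with a median of 0.19 log2.

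Of 20 inflammatory and feedback genes under the transcription factor NF-kB 3 rose and 0 fell. Interleukin 1 beta (Il1b), which was leukocyte-rich, went from 5.92, 6.86 and 6.90 to 10.31, 9.58 and 9.50 (3.24 log2, SE 0.70). Cyclooxygenase 2 (Ptgs2), which starts prostaglandin synthesis, measured 5.01, 5.97 and 5.40 against 9.04, 8.68 and 8.25 (3.20 log2, SE 0.64). Tnfaip3, the enzyme that shuts NF-kB signalling down, measured 10.63, 11.22 and 10.64 against 12.28, 12.62 and 11.65 (1.35 log2, SE 0.35). The inhibitor Nfkbia was at 13.52, 13.73 and 13.60 against 13.87, 13.69 and 13.68 (0.13 log2). Without control replicate 1 or day 4 replicate 1 the count was 1. The call of Tnfaip3 was also lost without control replicate 3 or day 4 replicate 2 (adjusted p up to 0.162).

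NF-kB binds short motifs of the form GGGNNTTCC, or the same with 1 more T in its run of T, searched here on both strands in the 250 bases before the start site of each gene, with overlapping matches merged in the display. Promoters are RefSeq's for the rat assembly GRCr8, all 3 on the minus strand, and the 150 bases next to the start site are printed 5′ to 3′ with matches in capitals. They are an adhesion receptor at chr2:206742784-206742933, a chemokine at chr14:17467256-17467405 and the feedback enzyme at chr1:15543980-15544129, chosen as risers of these 3 groups that held a match.
Vcam1: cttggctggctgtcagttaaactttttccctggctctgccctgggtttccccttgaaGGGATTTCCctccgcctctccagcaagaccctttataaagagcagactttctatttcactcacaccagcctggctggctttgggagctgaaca
Cxcl2: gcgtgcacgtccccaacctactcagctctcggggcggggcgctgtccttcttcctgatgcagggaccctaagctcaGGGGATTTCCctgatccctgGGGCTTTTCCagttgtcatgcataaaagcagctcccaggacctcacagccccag
Tnfaip3: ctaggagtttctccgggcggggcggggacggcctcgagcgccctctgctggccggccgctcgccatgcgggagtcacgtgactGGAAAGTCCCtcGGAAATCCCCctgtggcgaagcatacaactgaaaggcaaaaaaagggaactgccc
The match in Vcam1 began 93 bases before the start site, those in Cxcl2 74, 73 and 54 bases before it, and those in Tnfaip3 67 and 55 bases before it. The motif lay in 29 of 285 promoters of higher genes (10.2%), 7 of 62 of lower genes (11.3%) and 814 of 11733 of the genes tested (6.94%), against 6.08% of all 27457 promoters. Among higher genes it lay in 20 of 150 that were leukocyte-rich (13.3%) and 9 of 135 that were not (6.67%). The promoter of Sele held no match. A match is a stretch of letters and not a measured binding site.

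Matrix genes of healing tissue rose as well, and none of the called collagens or matricellular genes was leukocyte-rich. Periostin (Postn), a protein of the provisional matrix, went from 4.64, 4.18 and 5.07 to 10.09, 9.75 and 10.97, a rise of 5.64 log2 or 49.9-fold (SE 1.03, adjusted p = 0.00251). Tenascin C (Tnc), an adhesion-loosening protein of wounds, measured 4.27, 4.18 and 4.59 against 8.03, 7.36 and 8.95 (3.77 log2, SE 0.72). Osteopontin (Spp1), made by macrophages and injured tissue, measured 6.84, 6.56 and 7.76 against 9.13, 9.32 and 10.69 (2.66 log2, SE 0.62). Its mean lay 3.04 log2 higher in leukocytes than in allograft endothelium, with arrays that overlapped. Fibronectin (Fn1) rose by 1.19 log2, a call lost without any 1 of the 6 arrays (adjusted p up to 0.206). Thus 4 of 19 matricellular genes rose and 0 fell, with a median of 0.96 log2. Without control replicate 1 or 2, or day 4 replicate 3, the count was 2.

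Of 18 fibrillar and basement membrane collagens 5 rose and 0 fell, with a median of 0.71 log2. Col1a1, a chain of the collagen of scars, measured 6.24, 6.10 and 7.02 in normal hearts and 10.97, 10.24 and 12.29 in grafts (4.72 log2, SE 1.17, adjusted p = 0.0269). Its partner Col1a2 measured 6.92, 6.89 and 7.48 against 10.55, 10.62 and 11.70 (3.86 log2, SE 0.91), and Col3a1, the collagen of young scars, 8.85, 8.80 and 9.43 against 12.19, 11.55 and 12.62 (3.10 log2, SE 0.77). In all 3 genes replicate 3 was the highest array of each group and the groups were over 2 log2 apart. Col18a1, a basement membrane collagen of vessels, varied less, from 8.58, 8.26 and 8.14 to 10.47, 10.07 and 10.50 (2.02 log2, SE 0.28, adjusted p = 0.0002). Col12a1, which coats collagen fibrils, rose by 1.58 log2, a call lost without any 1 of the 6 arrays (adjusted p up to 0.195). Col4a1, the main vascular basement membrane chain, stood at 13.32, 12.92 and 12.96 against 13.27, 13.23 and 13.38 (0.22 log2).

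The calls of the fibrillar collagens were lost when most single arrays were left out, while the differences stayed large. Without 1 array they ran from 4.15 to 5.18 log2 for Col1a1, 3.49 to 4.06 log2 for Col1a2 and 2.84 to 3.38 log2 for Col3a1. With only the 6 arrays compared in the fit, 8 of the 18 collagens were called higher. The count of 5 fell to 1 without control replicate 1 or 2 or day 4 replicate 1 or 3, and to 2 without control replicate 3, while the adjusted p of Col1a1 reached 0.154. Col18a1 kept its call each time. Of 14 genes of collagen processing and crosslinking 0 passed, and 5 were higher at an unadjusted p under 0.05. Lox, which crosslinks collagen, measured 5.39, 5.56 and 5.61 against 7.28, 7.60 and 8.68 (2.34 log2, SE 0.81, adjusted p = 0.154).

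Beside these values stand the markers of fibroblasts, the cells that make most collagen. The mean of 16 fibroblast markers was 7.08, 7.12 and 7.56 in normal hearts and 8.98, 8.64 and 9.39 in grafts, and 5 rose, all of them matrix genes named above (Col1a1, Col1a2, Col3a1, Postn and Fn1). All 16 had a positive difference, with a median of 0.96 log2, and 8 were higher at an unadjusted p under 0.05. Among those that did not pass, the collagen-binding lumican (Lum) measured 7.07, 7.21 and 8.38 against 10.58, 10.44 and 10.98 (3.11 log2, SE 1.08, adjusted p = 0.153), and Cthrc1, made by activated fibroblasts, 5.60, 6.14 and 5.87 against 7.76, 8.30 and 8.94 (2.46 log2, adjusted p = 0.0824). Decorin (Dcn), another collagen-binding protein, differed by 0.23 log2, the growth factor receptor Pdgfra by 0.15 log2 and the transcription factor Tcf21 by 0.19 log2. The share of fibroblasts in the matrix result was not tested. Of 14 genes of mural cells and myofibroblasts 0 rose and 1 fell, the myosin light chain kinase Mylk (-0.55 log2, SE 0.11). Smooth muscle actin (Acta2) stood at 9.42, 9.18 and 8.77 against 9.39, 8.95 and 9.35.

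Of 19 matrix proteases and inhibitors 3 rose and 0 fell. Adamts4, which cuts the proteoglycans versican and aggrecan, measured 6.39, 8.37 and 6.36 against 11.06, 10.66 and 10.15 (3.58 log2, SE 0.59), and Timp1, an inhibitor of matrix metalloproteinases, 7.49, 9.31 and 7.83 against 10.69, 10.93 and 11.29 (2.76 log2, SE 0.52). Normal replicate 2 was well above the other normal arrays in both, yet below every graft. Mmp14, the membrane-bound collagenase, rose from 9.56, 9.33 and 9.87 to 11.41, 10.74 and 11.12 (SE of the difference 0.35), a call lost without control replicate 1 or 2 or day 4 replicate 1 or 3. Its other probe set differed by 0.40 log2.

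Among 23 growth factors of repair 2 rose: the activin chain Inhba, from 6.97, 8.22 and 7.40 to 9.31, 8.68 and 10.24 (1.88 log2, SE 0.42), and the stress cytokine Gdf15 (1.20 log2, SE 0.29). The other probe set of Inhba differed by 0.16 log2. Without control replicate 1 or 3, or day 4 replicate 3, neither Inhba nor Gdf15 was called. Without control replicate 2 or day 4 replicate 1 the count was 1. Tgfb1, the main fibrosis-driving factor, measured 9.92, 8.70 and 8.93 against 9.39, 9.63 and 10.59 and did not pass (0.68 log2, adjusted p = 0.415).

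Bone morphogenetic proteins (BMPs) help to keep vessels stable, and part of this list fell. Of 19 genes of BMP and TGF-beta signalling 4 fell and 0 rose, with a median of -0.25 log2. Id1, a direct BMP target that holds back differentiation, went from 13.78, 13.92 and 13.46 to 12.79, 12.32 and 13.03 (SE of the difference 0.24, adjusted p = 0.0223). Its relative Id3 went from 13.11, 13.54 and 13.05 to 12.74, 12.55 and 12.67 (-0.58 log2, SE 0.14). Smad9, a signal carrier of the pathway, measured 6.57, 6.44 and 5.87 against 5.37, 5.39 and 5.20 (-0.97 log2, SE 0.21), and Smad7, its feedback inhibitor, 10.13, 10.19 and 9.42 against 8.89, 8.40 and 9.11 (-1.11 log2, SE 0.27). The other probe set of Smad9 differed by -0.11 log2, and the probe sets of Smad7 ran from -1.11 to -0.46 log2. No other probe set of either gene was called. On the probe sets used, the groups did not overlap in any of the 4 genes called, which the call on these same arrays makes likely.

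Members that did not pass included the inhibitor Smad6 (-0.71 log2, adjusted p = 0.135) and the receptor Bmpr2 (-0.89 log2, adjusted p = 0.12). Chosen after its values were seen, Tmem100, a BMP-dependent gene of endothelium, fell by 0.92 log2 (SE 0.22), from 10.18, 11.04 and 10.01 to 9.61, 9.42 and 9.45. Its call was lost without control replicate 2 or any 1 of the grafts (adjusted p up to 0.181). The count of 4 was 0 without control replicate 2, 1 without control replicate 1 or day 4 replicate 1 or 2, and 2 without day 4 replicate 3.

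The Notch and angiogenesis lists gave few calls. Of 14 Notch genes Dll4, the arterial and tip-cell ligand, fell from 11.17, 11.39 and 10.54 to 10.10, 10.30 and 10.37 (-0.77 log2, SE 0.19), a call lost without each array but control replicate 3 (adjusted p up to 0.169). The target Hey1 measured 12.02, 12.21 and 12.07 against 11.26, 11.44 and 11.04 (-0.85 log2, SE 0.32, adjusted p = 0.204). Of 18 angiogenesis genes 1 passed: Angpt2, which loosens the hold of mural cells on vessels, rose from 9.57, 9.52 and 9.58 to 10.43, 10.35 and 10.80 (0.97 log2, SE 0.18, adjusted p = 0.00327). Esm1, a tip-cell gene induced by VEGF, measured 10.96, 10.31 and 10.73 against 8.80, 9.77 and 9.03 and missed the threshold (-1.46 log2, SE 0.45, adjusted p = 0.0876).

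Cyp26b1 was the lowest gene. It measured 10.19, 10.63 and 10.72 in normal hearts and 7.88, 9.02 and 7.53 in grafts (-2.37 log2, SE 0.50, adjusted p = 0.00902), and lost its call without day 4 replicate 1 or 3 (adjusted p up to 0.0675). The other probe set of Cyp26b1 differed by -0.91 log2 and was not called. Chosen after its values were seen, the retinoic acid receptor Rarb, a gene that retinoic acid induces, was lower too, at 9.99, 9.89 and 10.04 against 8.90, 9.53 and 9.31 (-0.72 log2, SE 0.16). That call was lost without control replicate 3 or day 4 replicate 1 (adjusted p up to 0.101). Serpinb7, a protease inhibitor, fell from 6.95, 6.95 and 6.29 to 4.96, 5.08 and 5.14 (-1.67 log2, SE 0.18, adjusted p = 1.08e-05).

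Cardiac capillaries import fatty acids for the heart muscle. Of 13 genes of that task 2 rose and 0 fell: Angptl4, an inhibitor of lipoprotein lipase, from 6.91, 6.85 and 6.57 to 9.11, 9.26 and 9.05 (2.36 log2, SE 0.45), and the lipoprotein receptor Scarb1 (1.18 log2, SE 0.17). The carriers and binding proteins differed little, with Cd36 at 13.85, 13.66 and 13.36 against 13.68, 13.16 and 13.41, Fabp4 at -0.15 log2 and Gpihbp1, which anchors the lipase, at -0.15 log2. None of these 3 passed.

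Of 20 genes of vascular tone and coagulation 3 rose and 1 fell (Npr3, above). The angiotensin receptor Agtr1a rose by 1.59 log2 (SE 0.36), the receptor of protein C, Procr, by 1.08 log2 (SE 0.27), and urokinase (Plau), which dissolves clots, by 1.75 log2 (SE 0.47). The count of 3 was 1 without any 1 of the control replicates or without day 4 replicate 3, and 0 without day 4 replicate 1. Endothelial nitric oxide synthase (Nos3) stood at 10.99, 10.14 and 10.32 against 10.65, 10.63 and 10.98, and thrombomodulin (Thbd) differed by -0.05 log2.

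Of 18 genes of hypoxia and glycolysis the enzymes Pgk1 (0.84 log2, SE 0.18), Eno1 (0.61 log2, SE 0.15) and Pgam1 (0.58 log2, SE 0.11) rose. The count was 1 without day 4 replicate 1, and the call of Eno1 was lost without each array but day 4 replicate 2 (adjusted p up to 0.169). Vegfa, the growth factor that hypoxia induces, measured 7.50, 7.97 and 7.39 against 7.57, 8.01 and 7.82 (0.18 log2). Of 20 stress genes 3 rose: Hmox1 (above), the metallothionein Mt2A, which binds zinc and copper (2.41 log2, SE 0.44), and the peroxide-removing enzyme Gpx1 (0.88 log2, SE 0.16), of which Mt2A was not leukocyte-rich. Of 19 immediate early genes 1 rose, the growth regulator Myc, from 8.77, 9.02 and 7.91 to 11.02, 10.02 and 10.07 (1.80 log2, SE 0.35). Egr1 differed by 0.03 log2 and Fos by less, with all arrays of Fos between 13.79 and 14.09.

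Proliferation did not show a call. Of 28 cell cycle genes 0 passed in limma (1 higher at an unadjusted p under 0.05), with a median of 0.22 log2 and a range of -0.23 to 1.29 log2. The mean of the list varied more among the normal arrays, at 8.05, 7.57 and 7.15, than among the grafts, at 8.08, 7.76 and 7.73.

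Heart muscle transcripts were lower. Of 19 cardiomyocyte markers 7 fell and 0 rose, with a median of -0.85 log2. Myh6, the fast myosin heavy chain, measured 8.30, 8.64 and 7.44 against 5.85 to 6.12 (-2.14 log2, SE 0.40, adjusted p = 0.00344). The other probe set of Myh6 differed by -0.30 log2 and was not called. Tnni3 measured 8.79 ± 0.63 against 6.70 ± 0.29 (-2.10 log2, SE 0.32), and Mb, the oxygen store of muscle, 8.84, 9.68 and 8.36 against 6.50, 7.08 and 7.12 (-2.06 log2, SE 0.29). Myl2, the ventricular myosin light chain, fell by 1.66 log2 (SE 0.38), and Cox8b, a respiratory chain subunit of muscle, by 1.84 log2 (SE 0.39). The other probe set of Myl2 differed by -0.18 log2 and was not called. The natriuretic peptide gene Nppa, which strained muscle raises, was at 6.14, 6.09 and 6.57 against 6.36, 6.01 and 5.71.

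The level of muscle transcripts differed among the normal arrays. The mean of the list was 7.18, 7.88 and 7.08 in normal hearts and 6.37, 6.57 and 6.57 in grafts, so normal replicate 2 was the highest. Without it 4 of the 19 were called, as without day 4 replicate 1. Of 24 genes of mitochondrial respiration and fatty acid oxidation 1 fell, Cox8b, a call lost without the same arrays. In normal DA hearts, which had not been transplanted, the mean of the cardiomyocyte list was 6.22, 6.52 and 6.78, near the Lewis isografts. In allografts of day 4 it was 6.06, 6.17 and 5.96. Heart muscle RNA is not made by endothelium, and how far the amount of it that was carried along differed between the groups was not tested.

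Lymphatic vessels drain tissue fluid, and a transplanted heart has lost its lymphatic connection. Of 8 lymphatic markers 2 rose and 0 fell, with a median of 1.16 log2. Podoplanin (Pdpn), a surface glycoprotein, measured 6.36, 5.72 and 7.83 against 9.17, 8.79 and 10.16 (2.74 log2, SE 0.46). Lyve1, a hyaluronan receptor that tissue macrophages also carry, measured 7.96, 7.51 and 9.14 against 10.18, 10.01 and 11.58 (2.39 log2, SE 0.55), and lost its call without control replicate 1 or 2 or day 4 replicate 3. The defining transcription factor Prox1 measured 6.32, 5.93 and 7.24 against 7.41, 7.33 and 7.98 and did not pass (1.08 log2, adjusted p = 0.267), and the growth factor receptor Flt4 differed by -0.03 log2. The list's mean was 7.35, 6.85 and 8.36 in normal hearts and 8.55, 8.34 and 9.39 in grafts, with replicate 3 the highest of each group.

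Day 4 was then set against the earlier isografts, to ask which genes moved between the time points. Against day 2, 5 genes were higher and 0 lower (0.0352% of genes, 343 at an unadjusted p under 0.05), and against day 3, 0 were higher and 0 lower (222 at an unadjusted p under 0.05, smallest adjusted p 0.999). The 5 were C1qa, Cfd, C1qc, Adgre1 and Rarres1, all leukocyte-rich. C1qa measured 6.65 to 7.44 on day 2, 8.09 to 9.08 on day 3 and 9.39 to 9.74 on day 4, and was 2.68 log2 above day 2 (SE 0.33, adjusted p = 0.00131). The list of macrophage markers had means of 7.28, 8.45 and 7.33 on day 2, 8.02, 9.11 and 8.39 on day 3, and 9.43, 8.67 and 9.54 on day 4.

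The 3 days share their normal arrays, so their values are set side by side. Selp lay 3.88, 4.23 and 3.83 log2 above normal on days 2, 3 and 4, Sele 3.36, 3.68 and 3.57 log2, and Plvap 2.42, 2.38 and 2.61 log2. Postn lay 3.54, 3.72 and 5.64 log2 above normal, Col1a1 1.77, 2.30 and 4.72 log2, and Tnc 2.28, 2.94 and 3.77 log2, and none of these 3 differed from day 2 or day 3 at the threshold. Against normal endothelium 151 genes were higher (1.06%) and 60 lower (0.422%) on day 2, 1.48% in all, and 256 were higher (1.80%) and 104 lower (0.732%) on day 3, 2.53% in all. The count of 5 against day 2 shifted with each array left out. It was 17 without day 2 replicate 2 and 9 without day 4 replicate 2, and 1 without any other of the 6.

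**Figure D4:**
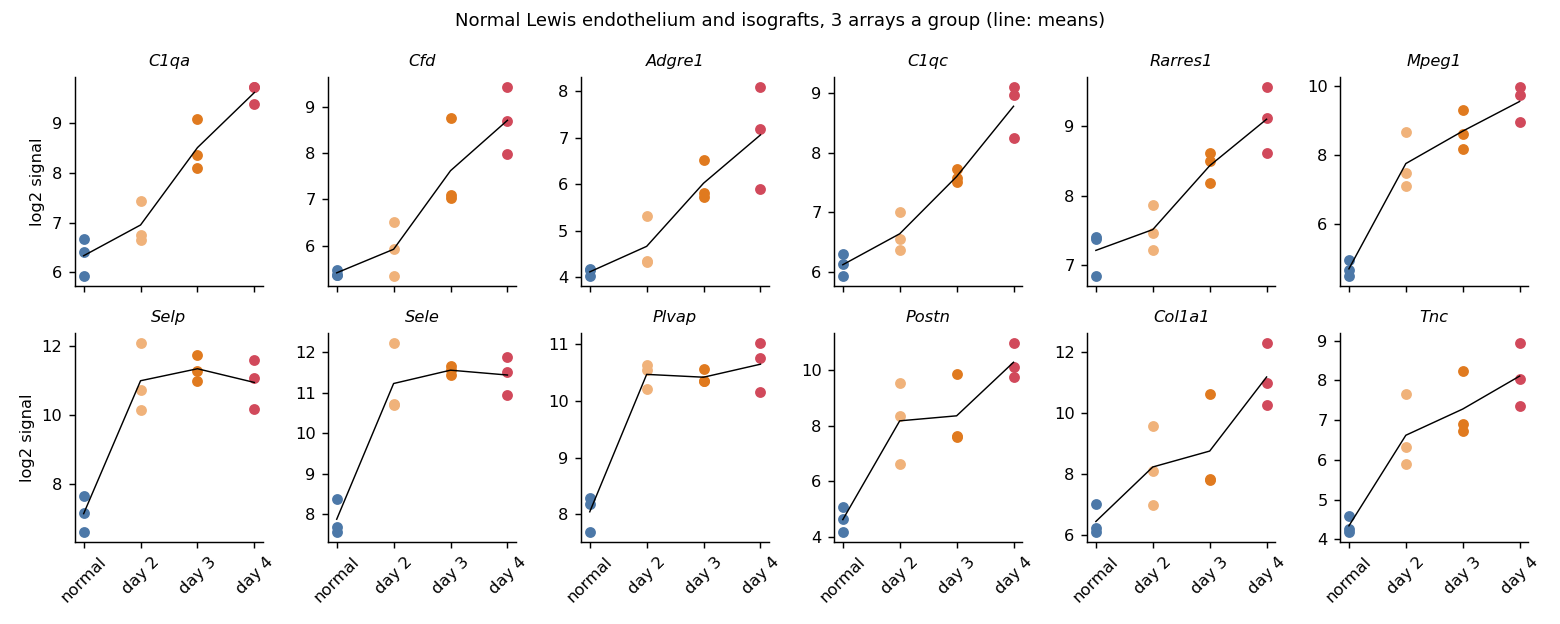
Log2 signal (vertical axes, scaled to each gene) of 12 genes on each array of normal Lewis endothelium and of isografts on days 2, 3 and 4, with a line through the group means. C1qa, Cfd, Adgre1, C1qc and Rarres1 have their highest mean on day 4, while the Selp arrays of day 2 already lie between 10.16 and 12.11.

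The mismatched grafts have their own normal DA hearts, so the isograft and allograft differences share no arrays. Their tests do share the spread of each gene, which was pooled over all endothelial arrays. A gene with a low pooled spread was thus favoured in both sets of calls, and the overlap of calls is not independent. How far this raised the overlap was not tested. Of the 371 genes higher in isografts on day 4, 312 (84.1%) were also called higher in allografts on day 4, where 7.19% of all genes were, and of the 79 lower genes 42 (53.2%) were called lower, where 4.26% were. They make up 30.5% of the 1022 genes higher and 6.94% of the 605 genes lower in allografts. None of the 450 genes was called the opposite way.

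The difference between both changes was called for 1 gene, Sectm1b (0.00703% of genes, 783 at an unadjusted p under 0.05). It encodes a secreted and transmembrane protein and measured 6.46, 6.64 and 6.56 in normal Lewis hearts and 6.62, 6.63 and 6.33 in isografts, a change of -0.03 log2, against 3.33 log2 in allografts. The difference of -3.35 log2 had an SE of 0.37 and an adjusted p of 0.000197. Postn changed by 5.64 log2 in isografts and 4.85 log2 in allografts, Selp by 3.83 and 3.54 log2, Gpnmb by 5.97 and 5.66 log2 and Cyp26b1 by -2.37 and -2.79 log2. Cxcl11 changed by 2.80 and 6.83 log2 and missed the threshold for the difference. Without allograft day 4 replicate 1, 6 genes were called higher and 75 lower in the isograft change. This comparison had a median SE of 0.234 log2 and recovered 49 of 100 genes changed by 1 log2 on simulated data. A gene without a call may thus still differ. The median of 13 interferon-gamma genes was 0.28 log2 in isografts and 2.12 log2 in allografts, with 1 and 9 called higher. For 9 MHC class II genes it was 1.30 and 3.51 log2, and for 19 macrophage markers 3.09 and 3.51 log2.

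**Figure D5:**
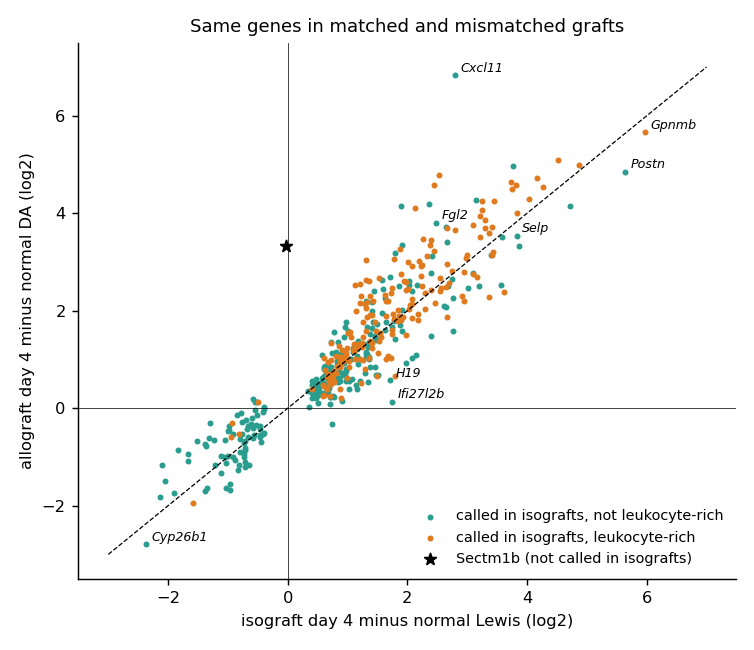
Change on day 4 in isografts (horizontal axis, log2) against the change on day 4 in allografts (vertical axis, log2) for the 450 genes called in isografts, coloured by whether leukocytes are rich in them, and for Sectm1b (star); the dashed line marks equal change. Gpnmb, Postn and Selp lie near the line, Cxcl11 far above it, and Sectm1b at -0.03 and 3.33 log2.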

How the data were processed

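The authors deposited log2 values made with RMA in the affy package, per the submitters' processing notes; versions are not given in the sources used here. The 24 endothelial and 4 leukocyte arrays were normalized apart by the authors, per the labels and their column medians (6.51 to 6.59 and 6.83 to 6.88). Of 31099 probe sets, 57 controls, 436 naming several genes and 9780 not listed with a gene were left out, and the probe set of highest mean stood for each of 14217 genes. limma 3.58.1 (R 4.3.3) fitted 1 mean per group over the 24 arrays, with lmFit and eBayes, 16 residual degrees of freedom and Benjamini-Hochberg adjustment over all genes. Tested on simulated data with 14217 genes, the comparison with normal hearts recovered 84 of 100 genes changed by 1 log2 and 98 of 100 changed by 2 log2, with 8 false calls. The simulation gave every array the same independent spread for a gene, whereas the real counts shifted with array weights and with single arrays left out. Its recovery may therefore be too favourable. The number of arrays limits the precision, with a median SE of 0.165 log2 for the comparison with normal hearts.

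The comparison and the 51 gene lists (769 of 865 members measured) were chosen with earlier results of these data known. Genes are named where they are the 12 highest or 12 lowest called, the 12 highest called that were not leukocyte-rich, the 6 highest or lowest called in another comparison, or the 5 largest differences of a list, and where they define a cell type that is described. Other genes named were chosen after their values were seen: Slco2a1, Fgf23, Ccl3, Ccl4, Ccl9, Folr2, C1s, Serping1, Fn1, Col12a1, Id3, Tmem100, Rarb, H19, Ifi27l2b and those given as not passing. RefSeq symbols and promoters are of GRCr8. Alternatives were other normalizations, filters, probe set rules, array weights, a replicate block, arrays left out and cell type means as covariates.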

Additional observations from a re-analysis of the deposited data

Results flagged for a closer look

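Between day 2 and day 4 of isografts 5 genes differed by a test of the difference itself in limma, all higher on day 4. C1qa was 2.68 log2 higher (SE 0.33, adjusted p = 0.00131). Cfd was 2.79 log2 higher, from 5.34, 6.51 and 5.92 on day 2 to 8.70, 7.99 and 9.44 on day 4. Adgre1, the macrophage receptor F4/80, was 2.40 log2 higher, from 4.34, 5.31 and 4.32 to 8.10, 5.90 and 7.18. C1qc was 2.13 log2 higher, from 6.64 ± 0.33 to 8.78 ± 0.46. Rarres1, a gene that retinoids induce, was 1.59 log2 higher, from 7.46, 7.87 and 7.21 to 9.57, 8.61 and 9.12. In each of the 5, replicate 2 was the highest array of day 2 and the lowest array of day 4.

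The day 4 change of Sectm1b differed between isografts and allografts by -3.35 log2 (SE 0.37, adjusted p = 0.000197), with -0.03 log2 in isografts and 3.33 log2 in allografts. The call held without each of the 12 arrays in turn.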

How the results depend on the processing

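Against normal endothelium, the counts of higher and lower genes were 673 and 213 with array weights, 356 and 130 after quantile normalization again, 242 and 25 with a 2-fold minimum, 179 and 26 at an adjusted p under 0.01 and 33 and 3 with the pan-leukocyte mean as a covariate. Covariates chosen after seeing the data gave 0 and 0 for the macrophage mean (92.8% of its variance lay between the groups), 119 and 33 for the fibroblast mean and 83 and 8 for the cardiomyocyte mean. Fitting only the 6 arrays compared gave 456 and 82 and kept 350 of the 450 calls (77.8%). In that fit the count of called matricellular genes went from 4 to 9 and that of growth factors from 2 to 6. Collagen processing genes went from 0 to 2, lysosome genes from 11 to 9 and complement genes from 8 to 7. Leaving out 1 array gave 204 to 328 higher and 29 to 71 lower. Centring each array on its median gave 304 and 113 and moved the median difference of all genes from -0.011 to -0.114 log2.

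Against day 2, the 5 higher genes became 1 with the compared arrays only, 41 with array weights, 1 at an adjusted p under 0.01, 3, 0 and 1 with the pan-leukocyte, macrophage and fibroblast means, and 1 to 17 without 1 array, with 0 to 1 lower. Against day 3 both counts were 0 under each alternative. For the isograft against the allograft change, the count of lower genes was 2 with the compared arrays only, array weights gave 28 higher and 159 lower, and leaving out 1 array gave 0 to 6 higher and 1 to 75 lower. The cause of these shifts was not tested.

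With the replicate number as a block, 407 genes were higher and 97 lower. Same-numbered arrays of both groups had correlations of 0.219, 0.238 and -0.157, so the numbers were not taken to pair them. Among the named genes 1 changed sign: Rac2 stood at -0.11 log2 with the pan-leukocyte covariate. Rac2 is itself a member of the list whose mean is that covariate, so this value says little about the gene. Of the 118 called genes with several probe sets, 35 had another called the same way, 0 one called the opposite way and 17 one of opposite sign, among them Lgmn, RT1-Bb and Aif1 (3.81 and -0.20 log2). Another probe set also differed little for Col12a1 (0.01 log2), Pgk1 (0.04 log2) and Cd8a (0.06 log2). Pgk1 and Cd8a each had 1 other probe set called the same way.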

Other observations

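Prostaglandin genes add to the picture of Ptgs2. Of 17 genes of eicosanoid synthesis 3 rose, Ptgs2 with the constitutive cyclooxygenase Ptgs1, from 8.14, 8.28 and 8.11 to 9.11, 9.02 and 9.35 (0.98 log2, SE 0.20), and thromboxane synthase Tbxas1 (1.09 log2, SE 0.21), which was leukocyte-rich. The other probe set of Ptgs1 differed by 0.05 log2. The chemokine Pf4, known from platelets, rose from 7.98, 7.97 and 7.69 to 10.57, 9.82 and 10.89 (2.55 log2, SE 0.43), and it was the 1 gene called of 8 platelet genes. Pf4 was leukocyte-rich and was also among the 9 risers of the list of macrophages that clear and repair. Pmp22, a myelin protein that other tissues also make, was the 1 called of 9 Schwann cell and neuron genes (1.31 log2, SE 0.27).

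Chosen after their values were seen, 2 further genes rose that were not leukocyte-rich. H19, a noncoding RNA of fetal tissue, measured 10.41, 10.83 and 10.61 in normal hearts and 11.89, 12.22 and 12.86 in grafts (1.71 log2, SE 0.31). In allografts it changed by 0.57 log2. Ifi27l2b, of an interferon-inducible family, measured 9.02, 9.31 and 9.40 against 10.91, 11.28 and 10.79 (1.75 log2, SE 0.30) and changed by 0.13 log2 in allografts. The difference between both grafts did not pass for either gene.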
